A study of Mus musculus with 6 samples.

Results

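The genes that copy DNA and supply its building blocks were followed in splenic CD4+ T cells of obese and lean mice. The group held 45 genes, chosen by symbol for their known roles but with earlier results of these data known. All 45 were found among the 22899 genes of the deposited tables. The obese group comprised 3 libraries from C57BL/6 mice given a high-fat diet with 60 kcal% fat, and the lean group comprised 3 libraries from C57BL/6 mice given a normal diet. Feeding began at 6 to 8 weeks of age and went on for up to 4 months, and CD4+ T cells, the helper lineage, were then sorted from the spleen by flow cytometry. Values were FPKM, fragments per kilobase of transcript scaled to the mapped fragments of each library, so levels can be ordered between genes. Between libraries they are relative to the total of each library, and results after other scalings are given below. Nothing in the labels ties a library to a separate mouse, and p-values therefore reflect only library-to-library spread, which may be technical.

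Before a cell divides, the origin recognition complex with Cdc6 and Cdt1 loads the Mcm2 to Mcm7 helicase onto DNA, and Cdc45 and the GINS complex then switch it on. DNA polymerases, held to DNA by the sliding clamp PCNA, copy both strands from deoxynucleotides that ribonucleotide reductase, thymidylate synthase and thymidine kinase supply. Many of these genes are switched on together at the start of S phase by E2F transcription factors. This follows once cyclin-dependent kinases, that of cyclin E among them, have released E2F from the retinoblastoma protein. Resting T cells do little of this, whereas activated T and B cells, plasmablasts and red cell precursors in the spleen do much.

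Promoter sequence was not used to choose the genes and was searched for letters that E2F proteins are known to bind. The genes were chosen by role, and many genes of this role are known to answer to E2F. A high share of such letters is therefore not independent of the choice. RefSeq windows (GRCm38.p6) of 300 bases, from 250 before a start of transcription onwards, were found for 38 of the 45 genes, as 46 windows. Such a start is not always the outer end of the gene, and in 21 of the 46 windows some or all of the bases before it lay within the gene, those of Cdc6 and Mcm5 among them. Both strands were searched for 3 forms of the E2F core, namely the letters TTCGCGC, the variant spelled TTGGCGC and the variant spelled TTCCCGC, and for the motif CCAAT bound by NF-Y; E2F forms can overlap each other on opposite strands, and TTGGCGC can overlap CCAAT. At least 1 E2F form was found in 27 of the 46 windows (58.7%), against 8.07% of all 32851 RefSeq windows of that length. CCAAT was found in 58.7% of the 46 windows and in 37.4% of all windows. The windows of all genes were not matched to the 46 for expression or base content. A match describes the letters and does not show binding. The 4 stretches below are the 250 bases before the start, all outside the annotated gene, written 5′ to 3′ along the gene, with each match in capitals, read on either strand. Rrm2 and E2f2 are shown because they rose in obese libraries, Rrm1 as the partner of Rrm2, and Mcm6, which was not called, because its E2F forms overlap as inverted pairs. Their positions are chr12:24708004-24708253 (+ strand) for Rrm2, chr4:136172024-136172273 (+ strand) for E2f2, chr7:102441445-102441694 (+ strand) for Rrm1 and chr1:128359706-128359955 (- strand) for Mcm6.
Rrm2: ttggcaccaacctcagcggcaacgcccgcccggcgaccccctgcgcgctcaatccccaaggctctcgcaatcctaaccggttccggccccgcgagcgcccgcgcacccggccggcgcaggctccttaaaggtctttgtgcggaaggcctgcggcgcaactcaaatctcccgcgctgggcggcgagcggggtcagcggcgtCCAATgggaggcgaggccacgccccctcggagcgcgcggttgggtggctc
E2f2: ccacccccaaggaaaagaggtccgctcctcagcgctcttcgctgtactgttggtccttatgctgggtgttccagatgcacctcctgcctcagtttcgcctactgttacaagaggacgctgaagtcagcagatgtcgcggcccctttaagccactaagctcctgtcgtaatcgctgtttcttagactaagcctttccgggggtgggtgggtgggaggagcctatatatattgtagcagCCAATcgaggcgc
Rrm1: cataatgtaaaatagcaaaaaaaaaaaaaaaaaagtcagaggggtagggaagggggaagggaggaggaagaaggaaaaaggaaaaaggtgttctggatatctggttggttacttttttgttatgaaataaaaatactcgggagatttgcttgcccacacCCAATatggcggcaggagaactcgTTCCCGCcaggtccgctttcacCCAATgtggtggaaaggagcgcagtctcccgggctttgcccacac
Mcm6: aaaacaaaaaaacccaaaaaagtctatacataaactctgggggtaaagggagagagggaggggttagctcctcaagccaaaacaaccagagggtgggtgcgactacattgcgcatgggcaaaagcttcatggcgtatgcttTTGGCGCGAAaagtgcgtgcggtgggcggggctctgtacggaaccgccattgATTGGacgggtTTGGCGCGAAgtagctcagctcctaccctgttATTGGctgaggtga

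In these stretches Rrm2 and E2f2 carried CCAAT and no E2F form, Rrm1 carried TTCCCGC between a pair of CCAAT motifs, and Mcm6 carried the form TTGGCGC interlocked with the form TTCGCGC at 2 places. E2F forms past the start, as in Rfc4 and E2f2, or inside the gene, as in Cdc6, are counted above and not printed.

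The 6 libraries carried abundant T cell transcripts and also those of other spleen cells. FPKM summed to between 595106 and 630744 per obese library and between 616104 and 656303 per lean library. Of 9 T cell markers 8 were found, and they summed to 2302 to 2801 FPKM in obese and 2642 to 2932 FPKM in lean libraries. The 15 erythroid markers summed to 29098, 4383 and 23613 FPKM in obese 1, 2 and 3, and to 186 to 484 FPKM in lean libraries. The 10 macrophage markers summed to 1476 to 1648 FPKM in obese and 634 to 738 FPKM in lean libraries, and the 7 plasma cell markers to 770 to 1393 FPKM in obese and 479 to 563 FPKM in lean libraries. Among 10 neutrophil markers 6 fell and among 5 NK cell markers 3 fell, while 0 of 9 B cell, 0 of 2 CD8 and 0 of 1 tested germinal centre B cell markers were called. No marker of these lists was at 0 in any library. In bulk RNA, a different number of cells and a different amount of RNA per cell cannot be told apart.

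Setting obese against lean libraries asks which transcripts differ between sorted CD4+ T cell libraries of mice made obese by diet and of lean mice. These libraries also held transcripts of other spleen cells, so a difference between them is not placed in T cells. Of the 45 genes, 42 reached at least 1 FPKM in at least 3 libraries and were tested, and each of these 42 also reached 1 FPKM in at least 2 lean libraries. The transcripts of 6 genes rose in obese libraries and none fell (limma over all 10788 tested genes, Benjamini-Hochberg (BH) adjusted p under 0.05). They were Rrm2, Tk1, Cdc6, E2f2, Ccne1 and Rfc4, and their means in obese libraries were 1.47 to 2.44 times those in lean libraries. The 6 are 14.3% of the 42, against 6.28% of all tested genes called in either direction, 5.77% called higher and 0.519% called lower. Differences are given on the log2(FPKM + 1) scale as obese minus lean. The median log2 difference was 0.25 over the 42 genes and 0.10 over all tested genes. Of the 42, 39 had a difference above 0 (92.9%), against 70.8% of all tested genes. On FPKM without further scaling, every obese library lay above every lean one in 21 of the 42, against 25.4% of all tested genes. Every obese library lay below every lean one in none of the 42, against 6.15% of all tested genes. At an unadjusted p under 0.05, 18 of the 42 were higher and none lower, beside 25.9% of all tested genes in either direction. The plot of differences by role shows all 42.

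**Figure D1:**
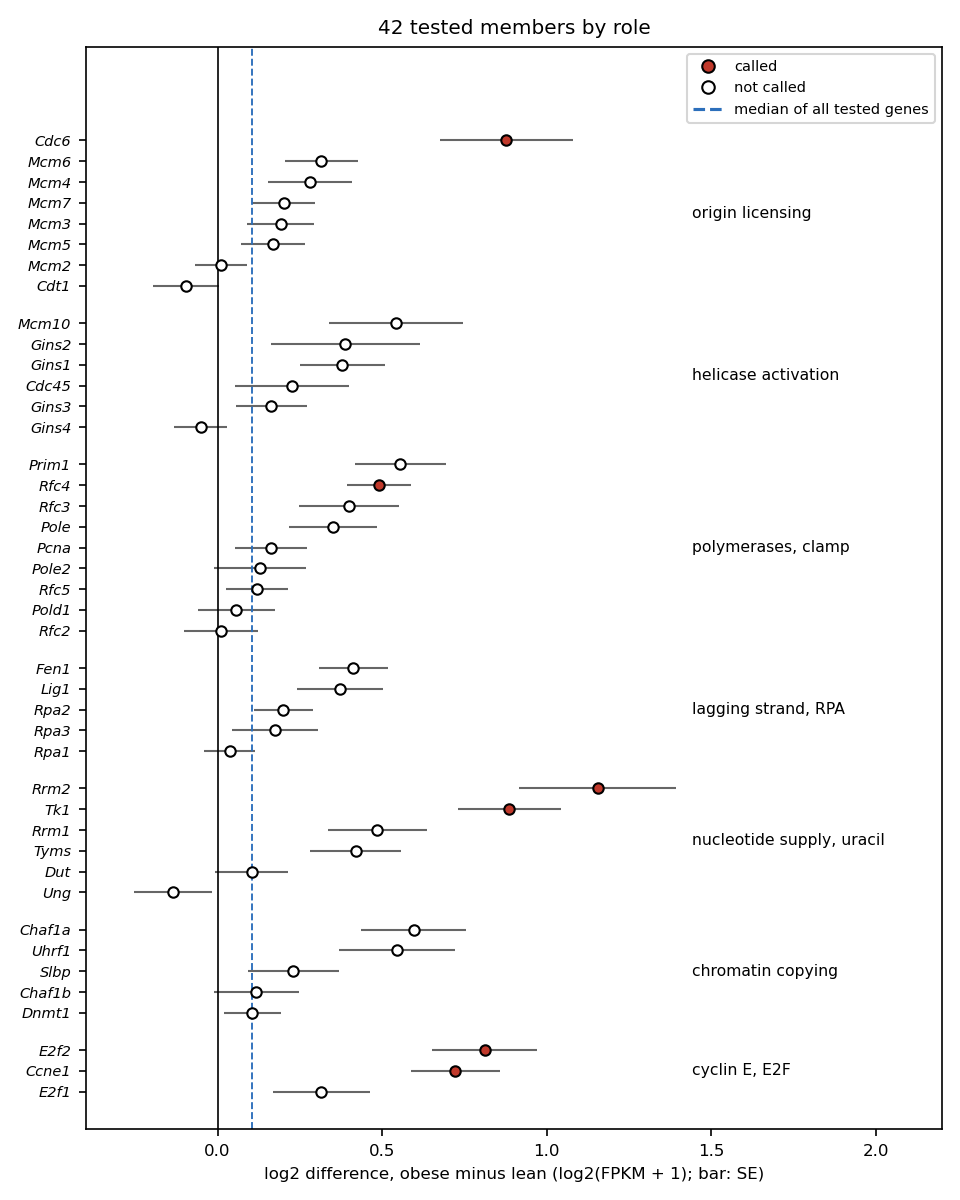
Difference of each of 42 tested genes between obese and lean libraries on the log2(FPKM + 1) scale, with limma's SE, ordered within 7 roles; filled points passed the test and the dashed line marks the median of all tested genes, 0.10. The 6 filled points lie between 0.49 and 1.15, and Ung, Cdt1 and Gins4 are the 3 points below 0.

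The number of called genes rested on single libraries and on the filter. It was 0 without the filter on low values, where the adjusted p of the 6 was 0.0531 to 0.106 (limma, BH). It was 2 without obese 1 and 5 without obese 2 or obese 3. It was 1 without lean 1, 0 without lean 2 and 4 without lean 3. The share called was 4.76% of the 42 and 3.9% of all tested genes without obese 1. In the same order it was 11.9% and 4.33% without obese 2 and 11.9% and 3.56% without obese 3. It was 2.38% and 3.02% without lean 1, 0% and 2.96% without lean 2, and 9.52% and 6.58% without lean 3. Without lean 1 or lean 2, the share of the 42 lay below that of all tested genes. After median-of-ratios scaling, the same 6 genes passed, 33 of the 42 had a difference above 0, and the median was 0.15 over the 42 genes and −0.0013 over all tested genes. Median-of-ratios scaling divides each library by a factor, which was 1.02, 1.04 and 1.07 in obese 1, 2 and 3. The factor was 0.974, 0.929 and 0.974 in lean 1, 2 and 3. Statements on overlap between groups use FPKM without that scaling, so a narrow separation may not hold after it. After quantile normalization 31 of the 42 lay above 0, with a median of 0.15 over the 42 and −0.03 over all. Median-of-ratios scaling left 441 of all tested genes higher and 129 lower, a share of 77.4% higher, against 622 higher and 56 lower, or 91.7%, without it; after quantile normalization it was 74.2% (322 higher, 112 lower) and Rrm2, Tk1 and Ccne1 were the members that passed.

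Of the 6 genes of deoxynucleotide supply and uracil removal, Rrm2 and Tk1 rose. Rrm2 (gene 20135, chromosome 12, 24708254 to 24714146, GRCm38) encodes the small, radical-carrying subunit of ribonucleotide reductase, whose protein is made in S phase. It stood at 22.61, 15.94 and 34.34 FPKM in obese 1, 2 and 3, against 8.97, 8.95 and 11.93 FPKM in lean 1, 2 and 3. The lowest obese value lay above the highest lean value. The log2 difference was 1.15 ± 0.24 (SE; limma, BH-adjusted p = 0.0252), and it was 0.88 to 1.41 in the 6 fits that left out 1 library, with an adjusted p of 0.0587 without obese 1, 0.0868 without lean 1 and 0.0945 without lean 2. Rrm1, the large subunit, which is made more evenly through the cycle, stood at 19.67, 17.83 and 25.97 FPKM in obese libraries and at 14.45, 12.72 and 17.04 FPKM in lean ones, which differed by 0.49 ± 0.15 in log2 and did not pass (SE; limma, BH-adjusted p = 0.0919). Within a library, Rrm2 over Rrm1 was 1.15, 0.894 and 1.32 in obese 1, 2 and 3, against 0.621, 0.704 and 0.700 in lean 1, 2 and 3. The groups did not overlap (2-sided exact permutation test, p = 0.1, the smallest that 3 against 3 libraries can give, and 0.15 after BH adjustment over the 9 ratios of this kind computed). Of the other 8 ratios, 5 reached the same p and the same adjusted p. The ratios were chosen after the values were seen. Several of them pair a called gene with one that was not called, so a separation of the groups there is not independent of the call.

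Tk1 (gene 21877, chromosome 11, 117815519 to 117826087, GRCm38), the cytosolic thymidine kinase of dividing cells, salvages thymidine into dTMP. It stood at 14.60, 13.43 and 21.40 FPKM in obese libraries, against 8.58, 8.03 and 8.24 FPKM in lean ones. The lean values lay close together and all obese values lay above them. The log2 difference was 0.89 ± 0.16 (SE; limma, BH-adjusted p = 0.0141), and Tk1 passed in 5 of the 6 leave-one-out fits and missed without lean 2 (BH-adjusted p = 0.0554). Its exons share 83 bases with Afmid on the opposite strand, and strandedness is not given in the sources used here, so a part of its reads could belong to Afmid, which stood at 13.92 to 16.12 FPKM in obese and 9.18 to 12.27 FPKM in lean libraries (log2 difference 0.44; limma, BH-adjusted p = 0.0615). Tyms, thymidylate synthase, makes dTMP from dUMP. It stood at 8.64, 8.65 and 11.20 FPKM in obese and 7.01, 5.75 and 7.77 FPKM in lean libraries, without overlap, and did not pass (log2 difference 0.42 ± 0.14 (SE); limma, BH-adjusted p = 0.106). Dut, which clears dUTP, averaged 20.1 ± 3.02 FPKM in obese and 18.5 ± 0.892 FPKM in lean libraries, and Ung, which cuts uracil out of DNA, averaged 8.48 ± 1.33 FPKM in obese and 9.35 ± 0.305 FPKM in lean libraries (SD, n = 3 each). Both overlapped between groups and neither passed.

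**Figure D2:**
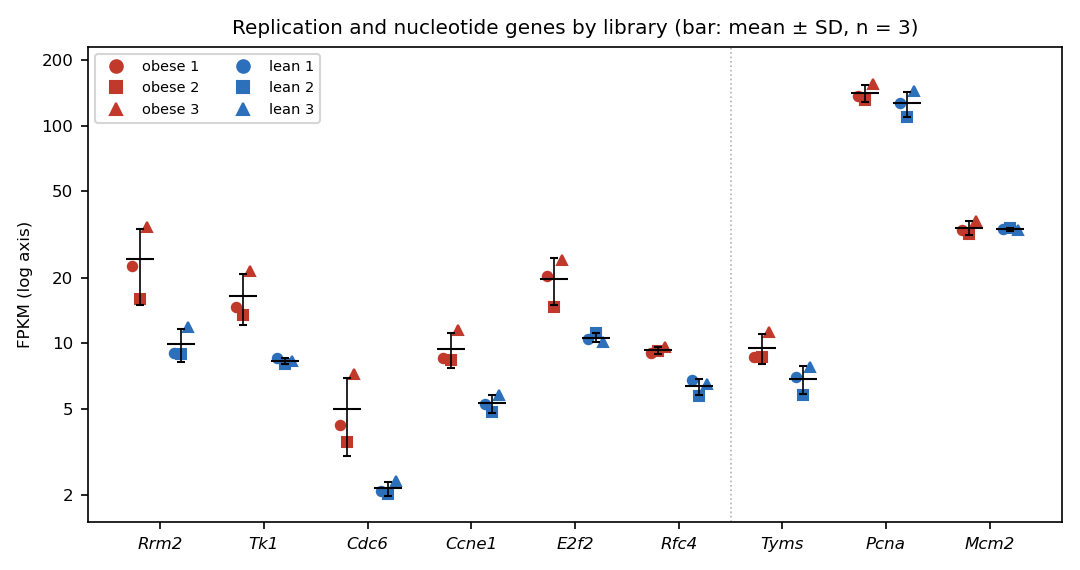
FPKM on a log axis of 9 genes in the 3 obese (left) and 3 lean (right) libraries, with the mean and SD of each group. The 6 genes left of the dotted line passed the test and have groups that do not overlap, with obese 3 the highest in each; Tyms also has groups that do not overlap, and Pcna and Mcm2 overlap.

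Among the genes that license origins, Cdc6 rose and the helicase subunits did not pass. Cdc6 (gene 23834, chromosome 11, 98907709 to 98923942, GRCm38), the ATPase that recruits the helicase to the origin, stood at 4.21, 3.53 and 7.18 FPKM in obese libraries, against 2.09, 2.03 and 2.33 FPKM in lean ones. All obese values lay above all lean values. The log2 difference was 0.88 ± 0.20 (SE; limma, BH-adjusted p = 0.0403), and it did not pass without obese 1 or any 1 of the lean libraries (adjusted p of 0.0619 to 0.124). Cdt1, the partner of Cdc6 in loading, stood at 31.00, 31.40 and 35.73 FPKM in obese libraries and at 30.96, 35.66 and 38.68 FPKM in lean ones, which overlap. Cdc6 over Cdt1 was therefore 0.136, 0.112 and 0.201 in obese 1, 2 and 3, against 0.0675, 0.0569 and 0.0602 in lean 1, 2 and 3 (2-sided exact permutation test, p = 0.1, the smallest possible). Orc1, the origin complex subunit that comes and goes with the cell cycle, was under the filter, at 0.95, 0.71 and 1.51 FPKM in obese libraries, against 0.27, 0.21 and 0.38 FPKM in lean ones.

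The 6 helicase subunits were among the more abundant genes of the group. Mcm2 stood at 33.03, 31.75 and 36.63 FPKM in obese libraries, against 33.38, 34.03 and 32.99 FPKM in lean ones, differing in log2 by 0.01 ± 0.08 (SE; limma, BH-adjusted p = 0.938), which became −0.10 after median-of-ratios scaling and −0.05 after quantile normalization. Mcm6 averaged 53.9 ± 7.18 FPKM in obese and 43.0 ± 4.14 FPKM in lean libraries, and Mcm7 averaged 47.3 ± 5.73 FPKM in obese and 40.9 ± 1.83 FPKM in lean libraries (SD, n = 3 each). Both had groups that did not overlap, and neither passed (limma, BH-adjusted p = 0.123 and 0.220). Mcm3, Mcm4 and Mcm5 averaged 21.6 to 32.5 FPKM in obese and 17.7 to 28.8 FPKM in lean libraries, with overlap. The subunits form a ring with 1 copy of each, and in every library the highest of the 6 was 2.33 to 2.64 times the lowest, which was Mcm4.

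None of the 6 genes that start the loaded helicase passed the test. Gins1, a GINS subunit, stood at 3.72, 4.46 and 4.95 FPKM in obese libraries, against 3.64, 2.91 and 2.84 FPKM in lean ones (log2 difference 0.38 ± 0.13 (SE); limma, BH-adjusted p = 0.118). Mcm10, a scaffold of the starting fork, stood at 1.95, 1.54 and 3.44 FPKM in obese libraries, against 1.28, 0.93 and 1.45 FPKM in lean ones (log2 difference 0.54 ± 0.20 (SE); limma, BH-adjusted p = 0.142). In both, the lowest obese value lay just above the highest lean value. Gins4 was far more abundant than the other GINS subunits although the complex holds 1 of each: it averaged 25.4 ± 1.19 FPKM in obese and 26.4 ± 1.36 FPKM in lean libraries, while Gins3 averaged 3.31 ± 0.332 FPKM in obese and 2.84 ± 0.141 FPKM in lean libraries (SD, n = 3 each). Gins2 averaged 6.78 ± 2.04 FPKM in obese and 4.94 ± 1.43 FPKM in lean libraries, and Cdc45, which completes the active helicase, averaged 5.62 ± 1.41 FPKM in obese and 4.63 ± 0.825 FPKM in lean libraries (SD, n = 3 each), both with overlap.

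**Figure D3:**
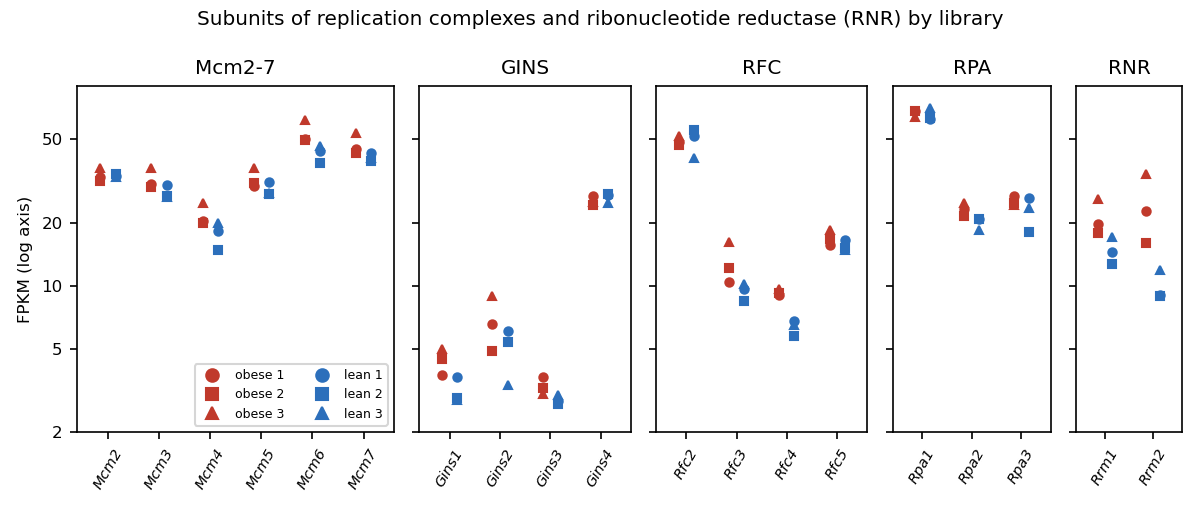
FPKM on a log axis of the subunits of the Mcm2 to Mcm7 helicase, GINS, replication factor C (RFC), replication protein A (RPA) and ribonucleotide reductase (RNR) in each obese (left, red) and lean (right, blue) library. Gins4 lies at 24.36 to 27.37 FPKM in all 6 libraries, above the other GINS subunits, and Rrm2 separates the groups more widely than Rrm1.

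Of the polymerase and clamp genes, Rfc4 rose. Rfc4 (gene 106344, chromosome 16, 23113948 to 23127730, GRCm38), a small subunit of the clamp loader, stood at 9.0, 9.18 and 9.63 FPKM in obese libraries, against 6.75, 5.73 and 6.49 FPKM in lean ones, without overlap. The log2 difference was 0.49 ± 0.10 (SE; limma, BH-adjusted p = 0.0235), and it passed without lean 3 and in no other leave-one-out fit (adjusted p up to 0.0831). Rfc4 shares 194 exonic bases with Eif4a2 on the opposite strand, a gene at 140.56 to 165.98 FPKM in obese and 140.37 to 209.88 FPKM in lean libraries, so its level is uncertain. Rfc2, another small subunit, was much more abundant, at 49.3 ± 2.52 FPKM in obese and 49.3 ± 7.47 FPKM in lean libraries (SD, n = 3 each). Rfc2 over Rfc4 was 5.39, 5.15 and 5.41 in obese 1, 2 and 3, against 7.67, 9.64 and 6.31 in lean 1, 2 and 3 (2-sided exact permutation test, p = 0.1, the smallest possible). Rfc3 and Rfc5 averaged 12.9 ± 2.94 and 16.9 ± 1.47 FPKM in obese and 9.41 ± 0.916 and 15.5 ± 0.942 FPKM in lean libraries (SD, n = 3 each), and neither passed.

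Pcna, the clamp itself, was the most abundant of the 45 genes in all libraries. It stood at 136.97, 131.37 and 156.12 FPKM in obese libraries, against 126.47, 110.18 and 143.60 FPKM in lean ones, with overlap (log2 difference 0.16 ± 0.11 (SE); limma, BH-adjusted p = 0.371). Its annotation holds the processed pseudogenes Pcna-ps1 and Pcna-ps2, and that of Tyms holds Tyms-ps, which can share reads with them. Prim1, the primase subunit that lays down RNA primers, stood at 7.51, 8.52 and 10.52 FPKM in obese libraries, against 5.83, 4.91 and 6.29 FPKM in lean ones, without overlap, and narrowly missed the threshold (log2 difference 0.56 ± 0.14 (SE); limma, BH-adjusted p = 0.0510). Pole, the catalytic subunit of the leading-strand polymerase, averaged 2.43 ± 0.535 FPKM in obese and 1.67 ± 0.125 FPKM in lean libraries, without overlap. Pold1, that of the lagging-strand polymerase, averaged 16.8 ± 1.78 FPKM in obese and 16.1 ± 2.03 FPKM in lean libraries, and Pole2 averaged 7.84 ± 0.308 FPKM in obese and 7.19 ± 1.63 FPKM in lean libraries (SD, n = 3 each), both with overlap. None of these 3 passed. Pola1, of the primase complex, was under the filter at 0.81, 1.17 and 1.87 FPKM in obese libraries and 0.72, 0.57 and 0.88 FPKM in lean ones.

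No gene of the lagging strand or of single-stranded DNA passed. Fen1, the flap nuclease that trims Okazaki fragments, stood at 19.39, 19.84 and 24.86 FPKM in obese libraries, against 15.56, 15.72 and 15.84 FPKM in lean ones (log2 difference 0.41 ± 0.10 (SE); limma, BH-adjusted p = 0.0548). Lig1, the ligase that seals them, stood at 13.14, 14.18 and 18.06 FPKM in obese libraries, against 12.75, 10.94 and 10.49 FPKM in lean ones (log2 difference 0.37 ± 0.13 (SE); limma, BH-adjusted p = 0.122). Neither gene overlapped between groups. Exons of Fen1 share 1909 bases with the antisense gene Gm10143, not analysed here, and 130 with Tmem258, and those of Lig1 share 247 with Zswim9, all on the opposite strand, so both levels are uncertain. Rpa1, Rpa2 and Rpa3, which coat single strands, averaged 67.1 ± 2.497, 23.1 ± 1.66 and 25.3 ± 1.36 FPKM in obese libraries, against 65.5 ± 4.57, 19.98 ± 1.41 and 22.6 ± 4.25 FPKM in lean ones (SD, n = 3 each). The groups overlapped for Rpa1 and Rpa3 and did not for Rpa2.

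Genes that copy chromatin and its methylation did not pass either. Chaf1a, the large subunit of the chaperone that places histones behind the fork, stood at 3.64, 3.29 and 5.44 FPKM in obese libraries, against 2.15, 2.41 and 2.46 FPKM in lean ones (log2 difference 0.60 ± 0.16 (SE); limma, BH-adjusted p = 0.0619). Its exons share 4648 bases with Ubxn6 on the opposite strand, at 39.63 to 50.97 FPKM in obese and 41.36 to 49.80 FPKM in lean libraries, so its level is uncertain. Uhrf1, which reads hemimethylated CpG behind the fork, stood at 10.48, 10.09 and 16.24 FPKM in obese libraries, against 8.51, 6.75 and 8.61 FPKM in lean ones (log2 difference 0.54 ± 0.18 (SE); limma, BH-adjusted p = 0.101). Both had groups that did not overlap. Dnmt1, the methyltransferase that Uhrf1 recruits, averaged 28.1 ± 1.01 FPKM in obese and 26.1 ± 2.45 FPKM in lean libraries (SD, n = 3 each). Chaf1b, the partner of Chaf1a, averaged 12.4 ± 1.49 FPKM in obese and 11.4 ± 1.68 FPKM in lean libraries, and Slbp, which binds the stem-loop of histone mRNAs, averaged 32.6 ± 6.13 FPKM in obese and 27.5 ± 3.35 FPKM in lean libraries (SD, n = 3 each). These 3 overlapped between groups. Exons of 16 of the 45 genes overlap another gene in the annotation, those of Cdc45, Gins2, Mcm7, Rfc2 and Rfc5 among them, and their levels are uncertain in the same way.

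Cyclin E and E2F genes, which drive the programme, included 2 of the 6 that rose. Ccne1 (gene 12447, chromosome 7, 38097984 to 38107490, GRCm38) encodes cyclin E1 and stood at 8.53, 8.33 and 11.45 FPKM in obese libraries, against 5.24, 4.82 and 5.79 FPKM in lean ones, without overlap. The log2 difference was 0.72 ± 0.13 (SE; limma, BH-adjusted p = 0.0176), and the adjusted p was 0.0633 without lean 1 and 0.0707 without lean 2. E2f2 (gene 242705, chromosome 4, 136172274 to 136196057, GRCm38), an activating E2F that red cell precursors also use, stood at 20.43, 14.60 and 24.13 FPKM in obese libraries, against 10.47, 11.15 and 10.17 FPKM in lean ones. The groups did not overlap, and the lowest obese value was in obese 2, as it was for Rrm2, Tk1, Cdc6 and Ccne1. The log2 difference was 0.81 ± 0.16 (SE; limma, BH-adjusted p = 0.0219), and E2f2 passed only without obese 2 or obese 3 among the leave-one-out fits (adjusted p of the others 0.0531 to 0.0720). E2f1, the related activator, stood at 4.25, 4.00 and 5.93 FPKM in obese libraries and at 4.00, 3.17 and 3.53 FPKM in lean ones, a tie at 4.00 (log2 difference 0.32 ± 0.15 (SE); limma, BH-adjusted p = 0.214). E2f2 over E2f1 was 4.81, 3.65 and 4.07 in obese 1, 2 and 3, against 2.62, 3.52 and 2.88 in lean 1, 2 and 3 (2-sided exact permutation test, p = 0.1, the smallest possible). Ccne2, cyclin E2, was under the filter at 1.0, 0.48 and 1.98 FPKM in obese libraries and 0.46, 0.39 and 0.40 FPKM in lean ones.

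The genes differed by level as well as by role. Averaged over the 6 libraries, 27 of the 45 lay above 10 FPKM, from 134.1 FPKM for Pcna and 66.3 FPKM for Rpa1 down. The 6 genes that rose averaged 3.56 to 17.1 FPKM. Of the 14 most abundant tested genes, at 21.5 FPKM or more, none was called and the median log2 difference was 0.16. It was 0.39 in the 14 genes of 8.92 to 19.7 FPKM, with 3 called, and 0.40 in the 14 of 1.77 to 8.17 FPKM, also with 3. Across the 42 genes, which share libraries and are not independent, Spearman's rho of mean level and difference was −0.52. Adding 1 FPKM before the log understates the change of low genes. Raising the filter from 1 to 5 FPKM also lowered the median of all tested genes, from 0.10 to 0.07. The share of all tested genes called fell from 6.28% to 4.42%. Among the genes followed here, 35 passed the filter of 5 FPKM. Their median was 0.20, against 0.25 for the 42, and the share called stayed at 14.3%. All tested genes were not divided into the level ranges above. A smaller difference at a higher level is therefore not shown to be particular to these genes.

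**Figure D4:**
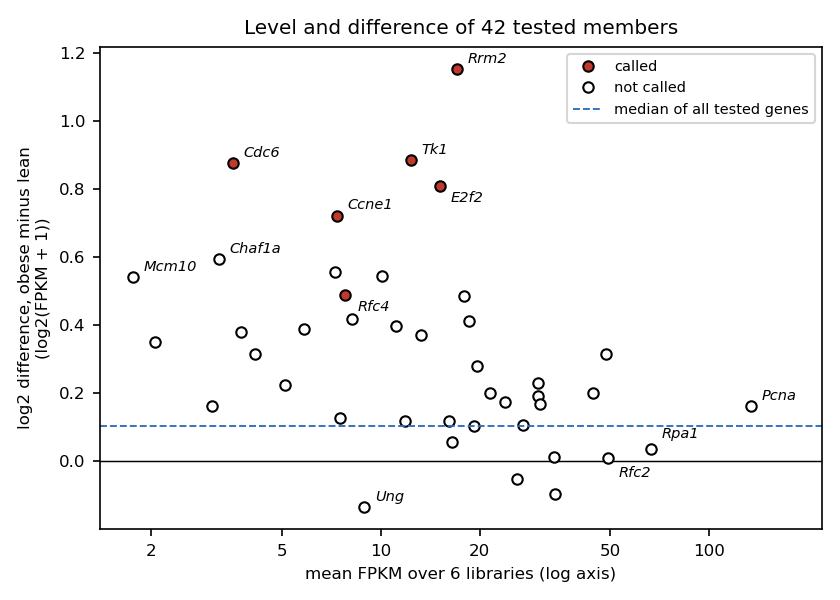
Log2 difference between obese and lean libraries against mean FPKM over 6 libraries (log axis) for 42 tested genes; filled points passed the test and the dashed line is the median of all tested genes. Called genes lie between 3.56 and 17.1 FPKM on average, and Pcna, Rpa1 and Rfc2, the most abundant, lie at 0.16 or below.

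Within the obese group the libraries were not alike. Obese 3 had the highest of the 6 values in 34 of the 42 tested genes, against 39.3% of all tested genes, and lean 2 the lowest in 23, against 37.5% of all tested genes. The 45 genes together summed to 903, 879 and 1072 FPKM in obese 1, 2 and 3, against 827, 768 and 832 FPKM in lean 1, 2 and 3. Marker levels of other cells also varied among the libraries. B cell markers summed to 502, 543 and 944 FPKM in obese 1, 2 and 3, against 392.2, 759 and 349 FPKM in lean 1, 2 and 3, plasma cell markers to 770, 838 and 1393 FPKM in obese libraries, and the T cell markers were lowest in obese 3. Of the erythroid markers, 13 of the 14 tested ones rose. All 10 macrophage markers also rose. The part of red cell precursors, B lineage cells or macrophages in the differences above was not tested. Obese 1 had the highest erythroid sum. The mean log2 level of the erythroid list was instead highest in obese 3, at 6.72, against 6.43 in obese 1 and 4.61 in obese 2. Without obese 1, Tk1 and Ccne1 were the 2 of the 6 genes that passed, and the median difference of the 42 was 0.34. Without obese 2, 5 of the 6 passed, all but Rfc4. The median was then 0.33. Without obese 3, 5 of the 6 passed, all but Rfc4, and the median was 0.19.

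**Figure D5:**
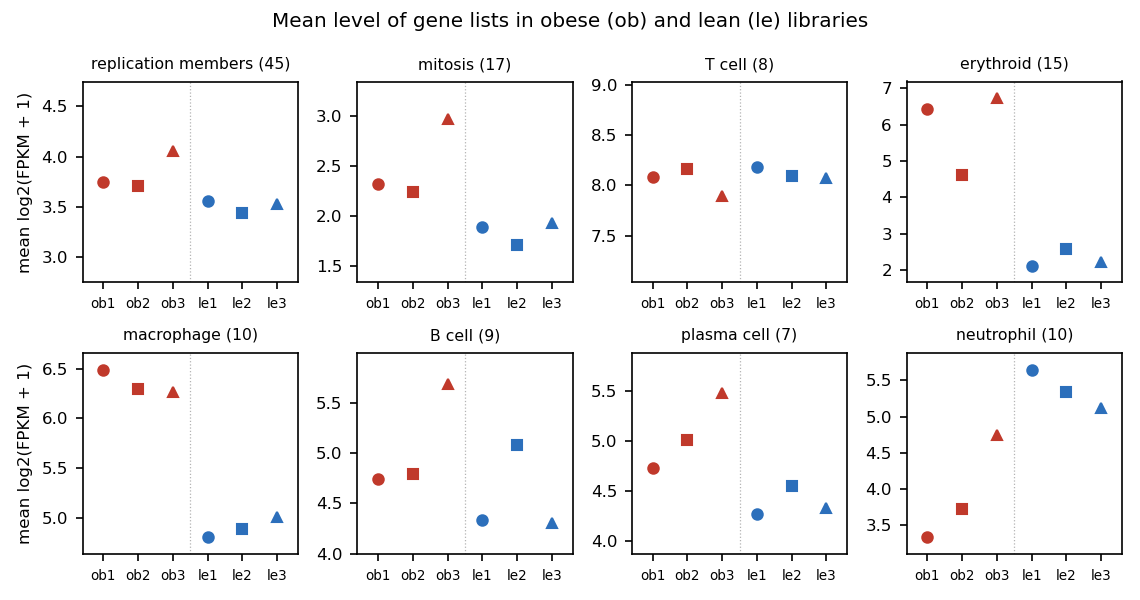
Mean log2(FPKM + 1) of 8 gene lists in each obese (ob) and lean (le) library; each panel has its own axis, at least 2 log2 units high. The 45 replication genes lie at 3.71 to 4.06 in obese and 3.44 to 3.56 in lean libraries, with obese 3 on top, as it is for mitosis, erythroid, B cell and plasma cell genes.

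Further genes of the same processes differed by list, beside 5.77% of all tested genes called higher. Of 40 other replication genes 36 were tested, and 3 (8.33%) rose and none fell: Tipin, a fork protection factor, Rfc1, the large clamp loader subunit, and Gmnn, the Cdt1 inhibitor geminin. Tipin stood at 11.20, 9.33 and 12.19 FPKM in obese libraries, against 7.46, 6.18 and 5.91 FPKM in lean ones (log2 difference 0.66; limma, BH-adjusted p = 0.0195). Rfc1 and Gmnn had log2 differences of 0.59 and 0.58 (limma, BH-adjusted p = 0.0228 and 0.0389). Of 33 other nucleotide synthesis genes, those of the de novo purine and pyrimidine pathways among them, all were tested and none was called. Of the 33, 15 were higher and 18 lower, with a median log2 difference of −0.01 against 0.10 for all genes. Of 22 tested other regulators of S phase entry, 3 (13.6%) rose and none fell. They were Rb1, which restrains E2F (log2 difference 0.81; limma, BH-adjusted p = 0.0149), the cyclin Ccna2 (0.99; 0.0389) and Tfdp2, an E2F partner (0.87; 0.0484).

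Mitotic genes lay higher too. Of 13 tested, Mki67, Tpx2 and Birc5 (23.1%) rose and none fell, and the median log2 difference was 0.71. Mki67, the proliferation antigen, stood at 4.83, 3.36 and 9.91 FPKM in obese libraries, against 1.12, 1.0 and 1.72 FPKM in lean ones (log2 difference 1.53; limma, BH-adjusted p = 0.0209). Together with the mitotic genes, the 3 lists above gave 9 calls, all higher, which became 2 without lean 1, 0 without lean 2, 6 without lean 3 and 5 without obese 1 or obese 3.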

How the data were processed

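RNA of 6 libraries of splenic CD4+ T cells was read on a HiSeq instrument, per the labels. The authors deposited 1 table per library with FPKM values of 2 decimals. The submitters' processing notes name Bowtie, RSEM, GRCm38 and mm10. Tool versions, filters, annotation and strand setting were not given in the sources used here. No whole-read steps were found in the FPKM with assumed transcript and fragment lengths, and a mismatch of these lengths could hide such steps. Depth is therefore unknown, and precision comes from the spread between libraries alone.

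Groups came from the labels. The filter, 1 FPKM or more in 3 or more libraries, left 10788 of 22899 genes, tested on log2(FPKM + 1) with limma 3.58.1 in R 4.3.3 (lmFit, eBayes with trend), 2-sided, with BH adjustment over all of them and a threshold of 0.05, without further scaling. The test was also run on simulated data with independent noise in each gene. Those data held no deviation shared by the genes of a library, so they do not show error rates for these libraries. Members and lists were chosen with earlier results of these data known. Values of every library are given for called members, for the 2 with the smallest p of a role without a call, and for Pcna, Mcm2, Tyms and Rrm2; those of Rrm1, Prim1, E2f1, Cdt1 and the genes under the filter were added after their values were seen, as were the ratios within a library. Exon overlaps and pseudogenes came from GENCODE M21, and positions and promoters from RefSeq GRCm38.p6. Alternatives were another pseudocount, 2 filters, 4 scalings, 3 variance models, another threshold, the replicate number as a block and each library left out.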

Additional observations from a re-analysis of the deposited data

How the results depend on the processing

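The 6 called members kept their direction under all 18 alternatives, except that Cdc6 was not tested with a filter of 5 FPKM, and no member was called lower under any. The count of called members, 6, became 0 without the filter on low values (adjusted p 0.0531 to 0.106 for the 6) and 3 after quantile normalization. It became 10 at an adjusted p under 0.1, 14 with array weights and 0 to 5 without 1 library. With array weights the share called was 33.3% of the members and 28.9% of all tested genes. At an adjusted p under 0.1 it was 23.8% and 13.1%, and after quantile normalization 7.14% and 4.02%. All tested genes gave 678 calls, 368 without the filter, 352 with a filter of 5 FPKM, 434 after quantile normalization, 3116 with array weights, 1411 at an adjusted p under 0.1 and 318 to 707 without 1 library. The 9 calls among other pathway genes became 0 without the filter, 4 with the filter of 5 FPKM, 2 after quantile normalization, 32 with array weights, 23 at an adjusted p under 0.1 and 0 to 10 without 1 library.

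With the replicate number as a block, 12 members (28.6%) and 17 other pathway genes were called, beside 1015 of all tested genes (9.41%). Libraries of the same number deviated together with correlations of 0.03, 0.06 and 0.19, so they share a number and no known pairing; obese 1 correlated best with lean 2, obese 2 with lean 1 and obese 3 with lean 3. Mcm2, not called under any alternative, changed sign after median-of-ratios scaling (−0.10), after quantile normalization (−0.055), with array weights (−0.039) and without obese 3 (range −0.046 to 0.054 without 1 library). The median of all tested genes was −0.0013 after median-of-ratios scaling and −0.032 after quantile normalization. The cause of these changes was not tested. Depth is unknown, so nothing is said of counting error.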

Other observations

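Windows with an E2F form were not limited to genes that rose. Of the 6 called genes, 3 (Cdc6, Rfc4 and E2f2) had such a form, as did 19 of the 30 tested genes with a window that were not called. CCAAT was found for 2 of the 6 and for 19 of the 30. Rrm2, Tk1 and Ccne1 had no E2F form of the 3 searched in these windows.

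The ratio of the enzymes of dTMP supply did not overlap between groups. Tk1 over Tyms was 1.69, 1.55 and 1.91 in obese 1, 2 and 3, against 1.22, 1.397 and 1.06 in lean 1, 2 and 3 (2-sided exact permutation test, p = 0.1, the smallest that 3 against 3 libraries can give). This ratio was chosen after the values were seen.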
